A study of Mus musculus with 3 samples.

Results

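The genes examined were the mouse receptors for the Fc part of immunoglobulin G, Fcgr1, Fcgr2b, Fcgr3 and Fcgr4, the signalling chain Fcer1g that several of them share, and Fcgrt, the neonatal Fc receptor. They were read from every array probe whose transcript accession belongs to 1 of these 6 genes, which gave 9 probes for 6 of the 33269 genes or transcripts on the array. Expression was measured in primary embryonic fibroblasts of E12.5 mouse embryos, left untreated in medium with 10% serum. On each of 3 Agilent arrays of 2 colours, 1 culture labelled wild type (Cy5) was set against 1 culture labelled SA1-null (Cy3), and the labels number these pairs as biological replicates 1 to 3. SA1 belongs to cohesin, a protein ring that pairs sister chromatids and shapes chromatin loops. The labels give neither the allele nor the number of embryos behind a culture. They do not say whether the replicates came from separate embryos, so p-values measure the spread between these samples only. No dyes were swapped, so an effect of the dye and one of the genotype cannot be told apart.

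Fc receptors bind antibody through its constant part and tie antibody recognition to the action of white blood cells. Fcgr1, Fcgr3 and Fcgr4 encode activating receptors whose signal runs through the tyrosine motif of the shared Fcer1g chain to the kinase Syk, while Fcgr2b encodes the inhibitory receptor, whose own tyrosine motif recruits the lipid phosphatase Inpp5d. Macrophages are known to carry all of these, B cells carry Fcgr2b, and natural killer cells carry Fcgr3. Fcgrt is a different kind of protein: it resembles a class I antigen-presenting molecule, pairs with B2m, and returns antibody taken up by many cell types to the cell surface.

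Stag1, which encodes SA1, goes against the labels: Cy3 over Cy5 gave a log2 ratio of 3.52 ± 0.21 (SD, n = 3; adjusted p = 0.0274 in limma), so the supposed null channel was the higher. That is the brightest Stag1 probe. With the Stag1 probes averaged the ratio was 2.45, so the probes differed in size. Each direction given here therefore follows the channel labels as deposited, and every sign turns if the labels are exchanged. Ratios here are Cy3 over Cy5, opposite in sign to the authors' deposited table. That table lists Stag1 at -3.43, -3.84 and -3.43, and the array titles name the knockout before the wild type. Read as knockout over wild type, the deposited values would put Stag1 lower in the knockout and the Fc receptors Fcgr1, Fcgr2b, Fcgr3, Fcgr4 and Fcer1g higher in it. The dye labels read the other way, and the labels do not settle which holds. The share of probes well above background was 60.6% to 65.8% in Cy3 and 61.8% to 67.0% in Cy5, and the median spot signal was 1.84 to 4.02 times the median background. All 9 Fc receptor probes passed that background test in each channel of every array. Replicate 1 was on slide 1, the other replicates were on slide 2.

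The start regions of these genes are shown because 5 of the 6 genes had the same direction and Fcgrt did not. Each is 300 bases from RefSeq on build GRCm38.p6, 250 before and 50 after the start of transcription, 5′ to 3′ on the gene's strand. Capitals mark matches to GAGGAA, read on either strand, a core bound by the myeloid factor PU.1 (gene Spi1).
Fcgr1, chr3:96293920-96294219, minus strand: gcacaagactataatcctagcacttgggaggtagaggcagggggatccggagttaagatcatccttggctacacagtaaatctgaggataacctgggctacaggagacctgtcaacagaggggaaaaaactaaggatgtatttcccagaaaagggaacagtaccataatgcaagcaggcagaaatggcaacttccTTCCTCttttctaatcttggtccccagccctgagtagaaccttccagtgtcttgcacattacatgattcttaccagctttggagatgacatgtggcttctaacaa
Fcgr3, chr1:171059354-171059653, minus strand: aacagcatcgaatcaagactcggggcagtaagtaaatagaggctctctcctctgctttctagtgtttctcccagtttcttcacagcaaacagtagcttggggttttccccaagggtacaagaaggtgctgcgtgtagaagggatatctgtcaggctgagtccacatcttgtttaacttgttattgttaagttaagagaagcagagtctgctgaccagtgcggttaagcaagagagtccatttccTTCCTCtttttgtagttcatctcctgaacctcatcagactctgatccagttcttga
Fcgr4, chr1:171018676-171018975, plus strand: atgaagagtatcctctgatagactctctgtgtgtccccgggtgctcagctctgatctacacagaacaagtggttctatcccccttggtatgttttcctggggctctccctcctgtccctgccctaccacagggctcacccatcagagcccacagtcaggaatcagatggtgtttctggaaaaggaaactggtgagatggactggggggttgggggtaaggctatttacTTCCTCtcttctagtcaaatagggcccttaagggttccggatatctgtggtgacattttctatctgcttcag
Fcer1g, chr1:171234300-171234599, minus strand: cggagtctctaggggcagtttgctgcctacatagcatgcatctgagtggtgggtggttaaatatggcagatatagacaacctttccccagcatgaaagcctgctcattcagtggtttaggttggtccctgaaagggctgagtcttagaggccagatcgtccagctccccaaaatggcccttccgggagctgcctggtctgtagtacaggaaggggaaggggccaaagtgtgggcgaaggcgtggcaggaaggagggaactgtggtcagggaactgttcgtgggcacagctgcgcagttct
Fcgrt, chr7:45103773-45104072, minus strand: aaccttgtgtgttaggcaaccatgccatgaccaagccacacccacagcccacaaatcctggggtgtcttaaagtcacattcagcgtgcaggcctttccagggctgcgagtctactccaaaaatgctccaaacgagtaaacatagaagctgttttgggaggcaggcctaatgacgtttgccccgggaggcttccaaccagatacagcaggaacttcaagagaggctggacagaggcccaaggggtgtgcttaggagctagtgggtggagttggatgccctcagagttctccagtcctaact
The motif was found in the start regions of Fcgr1, Fcgr3 and Fcgr4, at -55, -6 and -22 from the start, each time as TTCCTC, and is present in 28.3% of 32851 mouse start regions of this length. It was not found in Fcgr2b, whose sequence is not shown, in Fcer1g or in Fcgrt. The letters TTGCNNCAA (2.08% of all regions) and the TATA box letters TATAAA (13.6%) were found in none of the 6 genes, on either strand. The spacing of TTGCNNCAA is not that of the C/EBP palindrome, so C/EBP sites were not tested. Fcgr3 has a second listed start, whose region overlaps the first and holds the same match at -15. A match is a description of the letters and not a measured binding site.

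The activating receptor Fcgr3 and the shared chain Fcer1g had higher signal in Cy5, the channel labelled wild type, by 7.32-fold and 6.68-fold, and were the 2 of the 6 genes that passed the test (limma adjusted p = 0.0274 and 0.0429). Over all 18488 genes and transcripts tested, 0.314% were called, 0.303% in that direction and 0.0108% in the other. Fcgr1 and Fcgr2b had larger mean ratios and did not pass, Fcgr4 had a smaller one, and Fcgrt lay near 0. On the side labelled wild type on 3 of 3 arrays were 5 of the 6 genes, beside 19.1% of all genes tested. At an unadjusted p under 0.05 stood 5 of the 6, beside 7.49% of all genes tested. Without replicate 2, or without replicate 3, 0 genes of the whole table passed in limma (1294 and 736 at an unadjusted p under 0.05), and the adjusted p was 0.215 and 0.491 for Fcgr3 and 0.243 and 0.549 for Fcer1g in limma. Without replicate 1, 284 genes of the whole table passed in limma, 1.54% of all tested. Fcgr3 and Fcer1g were among them, as were Fcgr1 and Fcgr2b (limma adjusted p = 0.00371 and 0.00254). These are totals from cultures, in which fewer cells of a type and less RNA per cell cannot be told apart.

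Fcer1g encodes the common gamma chain, which the activating Fc receptors need at the cell surface and which also serves the IgE receptor. Its spot signals were 2036, 278 and 467 in Cy3 and 68786.5, 3394 and 2653 in Cy5 on replicates 1, 2 and 3, over local backgrounds of 23.5 to 33 and 51 to 68.5. The log2 ratios, Cy3 over Cy5, were -3.31, -2.53 and -2.39. Fcer1g was thus on the side labelled wild type on every array, most so on replicate 1. The mean was -2.74 ± 0.50 (SD, n = 3), and the authors' deposited table, which has Cy5 over Cy3, gives 3.42, 2.35 and 2.33.

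Fcgr3 encodes the low-affinity activating receptor CD16, which binds immune complexes. At its brighter probe the Cy3 signals were 1398, 189.5 and 226 and the Cy5 signals 43166.7, 2511 and 1782. The log2 ratios were -3.19, -2.61 and -2.82, the narrowest spread among the 6 genes. Their mean was -2.87 ± 0.29 (SD, n = 3). A second Fcgr3 probe gave -3.76, -2.57 and -2.64. The probes lay 0.58, 0.04 and 0.18 apart on replicates 1 to 3, and 0.78, 0.67 and 0.51 apart with the processed signals. The Cy3 signal of the second probe was 1.94 times background on replicate 2.

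Fcgr1 encodes CD64, the receptor that binds single IgG molecules with high affinity. Spots of Fcgr1 gave Cy3 signals of 564, 135 and 116 and Cy5 signals of 24655.6, 1480 and 1322. The log2 ratios of -3.68, -2.30 and -3.19 all had 1 sign but spread more widely than those of Fcgr3. With a mean of -3.06 ± 0.70 (SD, n = 3), 8.32-fold, Fcgr1 did not pass over all genes (limma adjusted p = 0.0564).

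Fcgr2b encodes CD32B, the inhibitory receptor, and had 3 probes on 2 transcripts. At the brightest probe the signals were 440, 89 and 102 in Cy3 and 25759.9, 1208.5 and 925 in Cy5. Its log2 ratios of -4.07, -2.49 and -2.88 gave a mean of -3.15 ± 0.83 (SD, n = 3), 8.86-fold, which did not pass (limma adjusted p = 0.0671). The highest and lowest of the 3 probes lay 0.72, 0.73 and 0.68 apart, and 0.82, 1.08 and 1.13 apart with the processed signals, which also changed the order of the probes on replicates 2 and 3. A probe of the same transcript was printed in 10 spots per array, which shows the error within an array. Its spots had mean log2 ratios of -4.71, -2.97 and -3.34, with SDs over the spots of 0.11, 0.10 and 0.14, against an SD of 0.92 over the 3 arrays. The probe of the other transcript had a mean of -2.96 ± 0.91 (SD, n = 3). Fcgr2b and Fcgr3 are known to have similar extracellular parts. The files used here give no probe sequences, so signal shared between the genes was not tested.

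Fcgr4 encodes the activating receptor for IgG2 subclasses. Its signals were 88.5, 69.5 and 86 in Cy3, or 4.12, 2.40 and 2.77 times the local background, and 1512.5, 283 and 205 in Cy5. The log2 ratios were -2.18, -0.88 and -0.92, so the channel labelled wild type was higher on each array and replicate 1 stood apart from the others. The mean of -1.32 ± 0.74 (SD, n = 3), 2.50-fold, did not pass (limma adjusted p = 0.401). The offset of 50 added to both channels draws the ratio of so dim a probe towards 0. With an offset of 0 the mean was -1.77, and without background subtraction -1.48. Neither passed (limma adjusted p = 0.0752 and 0.331). The signals processed by the scanner software gave -2.48, -1.54 and -1.36 (mean -1.79, limma adjusted p = 0.0494). With those signals 325 genes, 1.76% of all tested, were called.

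Fcgrt was measured at 3117, 305 and 513.5 in Cy3 and 5348, 608 and 486 in Cy5. Its log2 ratios were 0.93, 0.00 and 0.13, so replicate 1 alone lay clearly above 0. The mean of 0.35 ± 0.50 (SD, n = 3) did not pass (limma adjusted p = 0.723), and without replicate 1 it was 0.06. Its partner B2m, the light chain of class I molecules, had a ratio of 0.26 ± 0.29 and of 0.26 ± 0.13 at its second probe.

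**Figure D1:**
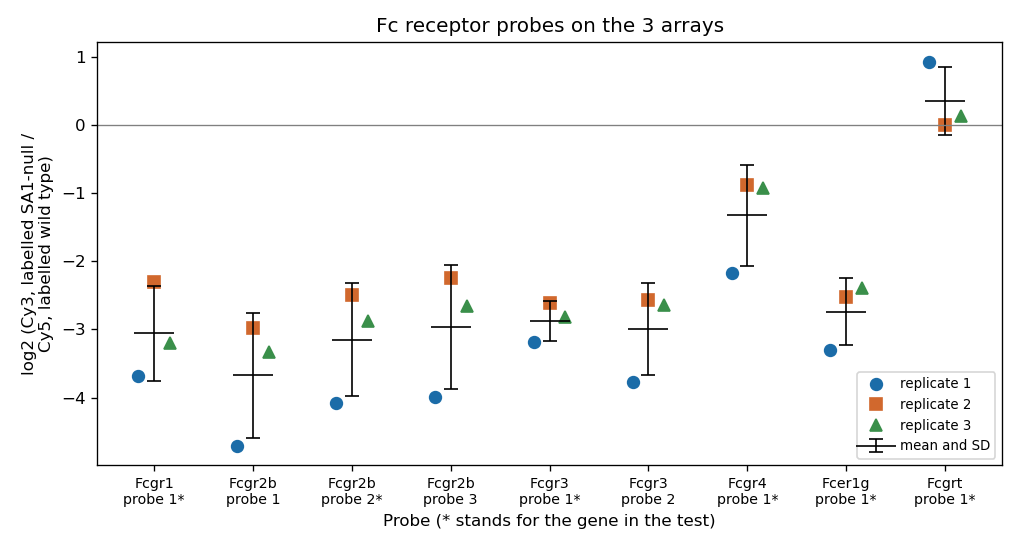
The log2 ratio of Cy3 (labelled SA1-null) over Cy5 (labelled wild type) is plotted for each of the 9 Fc receptor probes, with 1 symbol per array and the mean with its SD over 3 arrays. The probes of Fcgr1, Fcgr2b, Fcgr3, Fcgr4 and Fcer1g lie below 0 on every array, and those of Fcgrt between 0.00 and 0.93.

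On every array the ratios of Fcgr1, Fcgr2b, Fcgr3 and Fcer1g lay below that of Fcgr4, and that of Fcgr4 below that of Fcgrt. The log2 ratio of Fcgr2b minus that of Fcgr4 was -1.90, -1.61 and -1.96 (mean -1.82 ± 0.19, SD, n = 3). Fcer1g lay below Fcgrt, with differences of -4.24, -2.53 and -2.52. The inhibitory Fcgr2b and the activating Fcgr3 differed by -0.88, 0.12 and -0.06, which is not 1 direction. Fcgr3 and Fcer1g differed by 0.12, -0.08 and -0.43. Of 15 pairs of genes, none could pass an exact test that turns the signs of 3 arrays, whose smallest two-sided p is 0.25 (adjusted over the pairs 0.417).

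Levels of the channels were compared after loess within arrays and quantile normalization of the mean intensities between arrays, on a log2 intensity scale. Fcer1g ran from 9.14 to 11.46 in the 3 samples labelled SA1-null and from 11.55 to 14.76 in the 3 labelled wild type. The lowest sample labelled wild type was 0.09 above the highest labelled SA1-null, which is replicate 1. For Fcgr3 that gap was 0.11, for Fcgr4 0.62, for Fcgr2b 0.90 and for Fcgr1 1.00. The groups thus did not overlap for 5 of the 6 genes, where 6.05% of all genes tested were separated in that direction and 2.89% in the other. For Fcgrt they overlapped, at 9.29 to 11.95 in samples labelled SA1-null and 9.17 to 11.02 in samples labelled wild type.

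Replicate 1 had the highest levels of Fcer1g, Fcgr1, Fcgr2b and Fcgr3 in both channels. In Cy3 it exceeded the mean of replicates 2 and 3 by 2.31 for Fcer1g, 1.71 for Fcgr1, 1.70 for Fcgr2b and 2.48 for Fcgr3. In Cy5 the excess was 3.16, 2.64, 3.09 and 2.95. The median over all genes tested was -0.14 in Cy3 and -0.07 in Cy5. Fcgrt was also higher on replicate 1, by 2.66 in Cy3 and 1.79 in Cy5. Fcgr4 was the exception in Cy3, at -0.22, with 1.06 in Cy5, a value that 13.1% of all genes tested reached or exceeded. Slide 1 held only replicate 1, so slide and replicate cannot be told apart. On slide 2 alone the mean ratios were -2.46 for Fcer1g, -2.71 for Fcgr3, -2.75 for Fcgr1, -2.69 for Fcgr2b, -0.90 for Fcgr4 and 0.06 for Fcgrt.

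**Figure D2:**
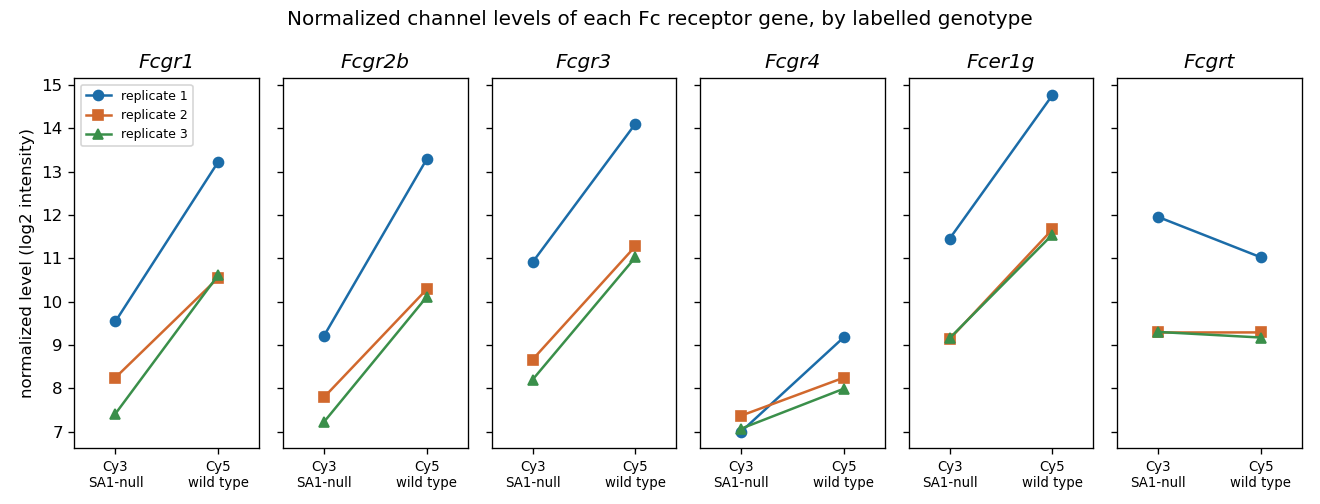
Normalized levels (log2 intensity) of each gene at the probe used in the test are plotted by channel, and a line joins the samples of each array. For Fcer1g the sample labelled SA1-null on replicate 1 is at 11.46, close to the samples labelled wild type on replicates 2 and 3 at 11.67 and 11.55.

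Among genes that work with Fc receptors, the adaptor Tyrobp, the inhibitory genes Pilra and Ptpn6 and the phagocyte genes Hcls1, Lcp1, Coro1a and Ncf4 had higher signal in the channel labelled wild type. They are the 7 called of 72 tested in 6 lists of 91 pathway genes, with 0 called the other way, beside 0.303% and 0.0108% of all genes tested. Without replicate 2 or without replicate 3 the count was 0. Of 22 tested ITAM adaptors and activating signalling genes, 17 had ratios below 0 on each array, and the median was -1.13, beside 19.1% and -0.02 for all genes tested. Tyrobp, an adaptor with the same kind of motif as Fcer1g, was called (-3.15 ± 0.15, SD, n = 3, limma adjusted p = 0.0274). Lat2 (-2.15 ± 0.52), the phospholipase Plcg2 (-1.81 ± 0.42), the linker Blnk (-2.77 ± 0.85) and the exchange factor Vav1 (-2.29 ± 0.68) did not pass, with limma adjusted p of 0.0726 to 0.0935. The second Lat2 probe gave -0.98 and the second Vav1 probe -2.10. Syk, named here for its role after its values were seen, was at -0.78 ± 1.01 (SD, n = 3).

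Inhibitory receptors and phosphatases had a median of -1.76 over 13 tested genes, with 10 below 0 on 3 of 3 arrays and 2 called, beside 19.1% and 0.303% of all genes tested. These were the paired receptor Pilra (-2.61 ± 0.47, limma adjusted p = 0.0448) and the phosphatase Ptpn6 (-2.70 ± 0.53, limma adjusted p = 0.0482), whose second probe was nearer 0 at -0.40. Inpp5d, the phosphatase that Fcgr2b recruits, was at -2.94 ± 0.91 (SD, n = 3, limma adjusted p = 0.0928). Sirpa was at -1.76 ± 0.45, with other probes at -0.53 and -0.70, and Pirb was at -2.52 ± 0.94; neither passed.

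Phagocytic uptake and oxidase genes had a median of -1.18 over 17 tested genes, 11 of them below 0 on 3 of 3 arrays and 4 called, beside 19.1% and 0.303% of all genes tested. The 4 called were the leukocyte actin regulators Hcls1 (-3.05 ± 0.25), Lcp1 (-2.68 ± 0.24, second probe -1.70) and Coro1a (-2.90 ± 0.46, second probe -2.41) and the oxidase subunit Ncf4 (-3.20 ± 0.48), with limma adjusted p of 0.0274 to 0.0333. Rac2, Cybb, Ncf1 and Was, between -2.16 and -1.77, did not pass. Their other probes gave -2.90, -0.77, -1.44 and -1.95, in that order. When every probe was tested on its own, Rac2 was among the genes called.

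Class I and class I-like molecules, which Fcgrt resembles, were listed together with peptide loading genes. This list had a median of -0.07 over 9 tested genes, and 0 were called in limma (1, Hfe, at an unadjusted p under 0.05). Hfe, an iron regulator of the class I fold, was at -0.69 ± 0.07. Cd1d1, Procr and Tapbp lay between -0.48 and -0.31, with the second Tapbp probe at -0.06. Of 8 transcription factors known at Fc gamma receptor genes 0 were called in limma, with a median of -0.16 and 2 (Irf8 and Spi1) at an unadjusted p under 0.05. Irf8 was at -2.59 ± 0.75 (limma adjusted p = 0.0865) and at -1.06 at its other probe. Spi1, the gene of PU.1, was at -1.01 ± 0.59 and was above background in Cy3 on 2 of 3 arrays, while Mitf and Runx1 were at -0.44 and -0.14. Of 11 other Fc receptor genes on the array only 3 could be tested and 0 were called (1, Fcrls, at an unadjusted p under 0.05 in limma). Fcrls, an Fc receptor-like gene of macrophages and microglia, was at -2.88 ± 1.39, with -4.49 on replicate 1 and -2.14 and -2.02 on the others. The cytosolic antibody receptor Trim21 was at -0.12 ± 0.24, and Fcer1a, the IgE-binding chain, at 0.00 ± 0.10. Fcer1a was above background in Cy3 on 1 of 3 arrays, so its ratio is limited by a dim signal.

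Markers of the cells that could carry Fc receptors were read on the same arrays. All 14 macrophage markers on the array were lower in the channel labelled SA1-null on 3 of 3 arrays, with a median of -2.82. Of these 7 were called, among them Lyz1 (-3.62 ± 0.23), Msr1 (-2.63 ± 0.18), Ptprc (-2.92 ± 0.35, second probe -1.04) and C1qc (-2.86 ± 0.49). The others called were Lyz2, Cd14 and Aif1, at -2.79, -1.97 and -3.01. Of all genes tested, 19.1% were lower there on 3 of 3 arrays and 0.303% were called. Itgam, at -0.80, passed the background test on 1 of 3 arrays in Cy3. The markers' summed level on the linear scale ran from 6117 to 45218 in Cy3 and from 47483 to 490072 in Cy5. It was highest on replicate 1 in both channels, as for Fcer1g, and so were the sums of the fibroblast markers and class I genes. The sum of the mast cell markers was lowest there in both channels. From replicate 2 to replicate 3 the macrophage sum in Cy5 went from 186725 to 47483, where Fcer1g was at 11.67 and 11.55. The part of the macrophage markers in the Fc receptor ratios was not tested. For other carriers, of the mast cell markers 2 of 8 were tested, Fcer1a and Mcpt4 (0.21 ± 0.33), above background in Cy3 on 1 and 2 of 3 arrays. The summed levels of the mast cell markers were 594 to 1161 in Cy3 and 577 to 985 in Cy5. The B cell genes Cd79b, Ms4a1 and Pax5 and the natural killer and T cell genes Ncr1, Gzma, Prf1 and Cd3g were not well above background in any sample, while Ebf1 (1.43 ± 1.53), Cd3e (-0.19 ± 0.21) and Cd4 (-0.01 ± 0.04) were tested and not called. The neutrophil genes S100a9, Ngp, Camp and Retnlg were likewise not well above background, and Mpo, the 1 neutrophil marker tested, was at 0.05 ± 0.03 (SD, n = 3). Summed levels in Cy3 and Cy5 were 822 to 1345 and 449 to 733 for B cell, 516 to 750 and 562 to 732 for natural killer and T cell, and 481 to 511 and 494 to 537 for neutrophil markers.

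The fibroblast markers that define the labelled cell type were present, with 14 of 14 above background in both channels on at least 1 array. Their median ratio was 0.71, with 8 of 13 tested above 0 on 3 of 3 arrays and 0 called in limma (7 at an unadjusted p under 0.05), beside 13.3%, 0.0108% and 7.49% of all genes tested. Pdgfrb (0.85 ± 0.19), Pdgfra (0.79 ± 0.11, second probe 0.19), Col3a1 (1.17 ± 0.60) and Prrx1 (0.86 ± 0.45) had the smallest p. Endothelial, erythroid, and platelet and megakaryocyte markers had 0 called of 3, 2 and 4 tested, with medians of 0.10, -0.12 and -0.15 and with 1, 0 and 1 at an unadjusted p under 0.05. In the last of these Pf4 was at -3.60 ± 1.20 (limma adjusted p = 0.103). The others in that list were Itga2b (0.22 ± 0.48), Ppbp (-0.33 ± 1.69) and Gp1bb (0.03 ± 0.27).

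**Figure D3:**
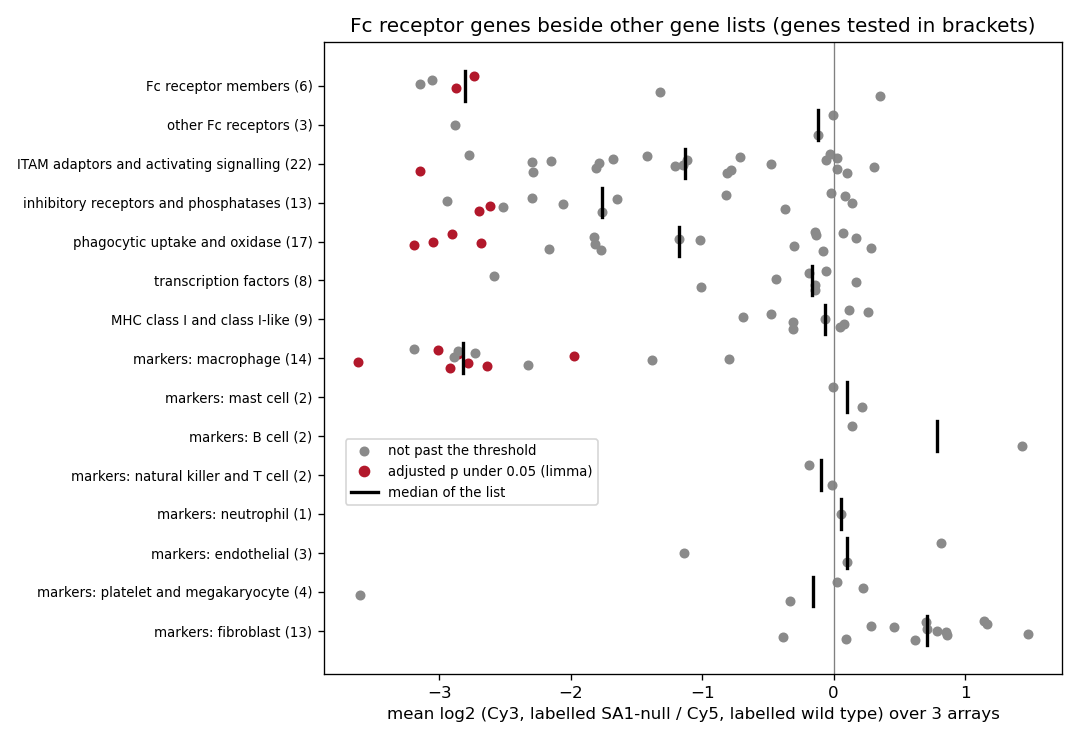
Each point is the mean log2 ratio of a tested gene over 3 arrays, in rows by gene list, with red for adjusted p under 0.05 in limma and a bar at the median. The Fc receptor genes have a median of -2.81, the macrophage markers -2.82 and the class I genes -0.07.

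None of the tested neighbours of the receptor genes was called in limma, and 1, Rcn3, had an unadjusted p under 0.05. Fcgr2b, Fcgr4, Fcgr3 and Fcer1g follow each other on chromosome 1 in the RefSeq gene table of GRCm38.p6, Fcgr1 is on chromosome 3 and Fcgrt on chromosome 7. Of 58 neighbours on chromosome 1 (10 on either side and 38 between the receptors, many of them transfer RNA genes) 10 were tested and 0 called, with a median ratio of 0.09. Between Fcgr3 and Fcer1g lie Sdhc, a subunit of succinate dehydrogenase (0.30 ± 0.33), and Tomm40l (-0.01 ± 0.23). Around Fcgr1 the 5 tested neighbours, all histone genes, lay between -0.43 and -0.06, and around Fcgrt the 12 tested lay between -0.14 and 0.74, with 0 called at both places. H4c14 (-0.42 ± 0.22) and H2ac18 (-0.31 ± 0.22) near Fcgr1 and Rcn3 (0.74 ± 0.49) next to Fcgrt had among the smallest p.

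**Figure D4:**
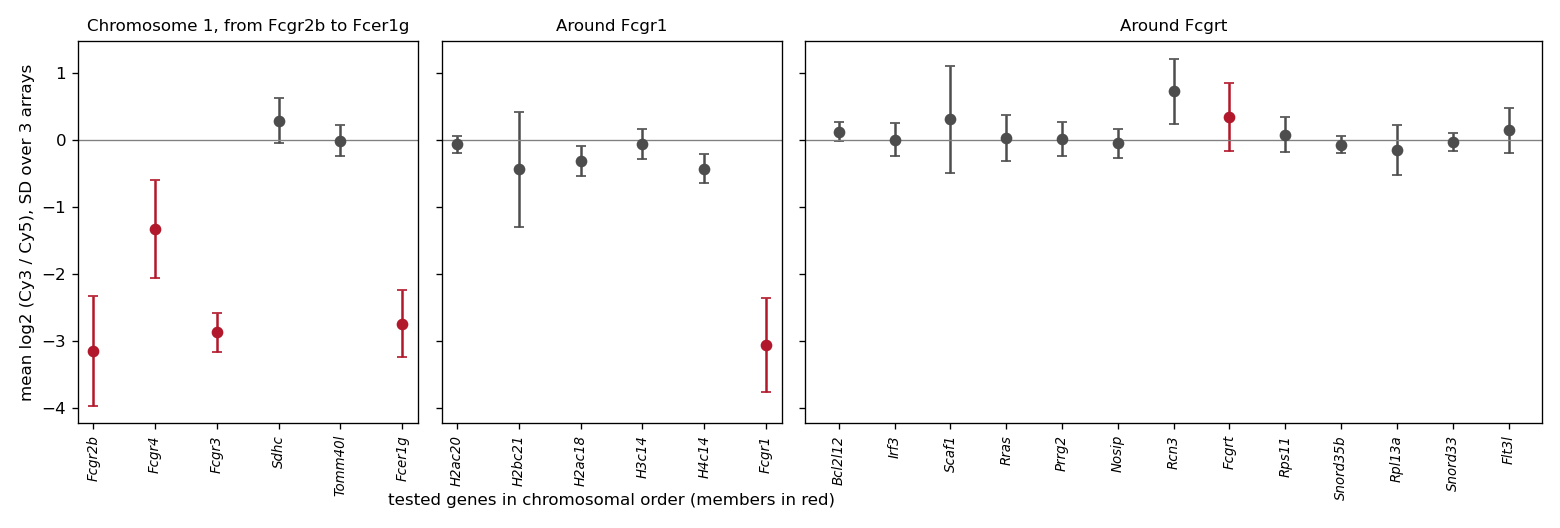
Mean log2 ratios with SD over 3 arrays are plotted for tested genes in their order on the chromosome, from Fcgr2b to Fcer1g on chromosome 1 and around Fcgr1 and Fcgrt, with the receptors in red. Sdhc and Tomm40l, at 0.30 and -0.01, lie between Fcgr3 at -2.87 and Fcer1g at -2.74.

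The genes whose 3 array ratios were nearest to those of Fcer1g were found by Euclidean distance among tested genes with a symbol. They were Ptpn6 (distance 0.095), the complement factor properdin Cfp (0.171), Pilra (0.225), the scavenger receptor Stab1 (0.231) and Coro1a (0.308). Among the 6 genes, Fcgr3 was nearest to Fcer1g, at 0.455. The genes nearest to Fcgrt were Sema5a (0.0623), Mrpl54 (0.0687), Tenm4 (0.0854), Ripk3 (0.0857) and Mme (0.0917). With 3 arrays such likeness is a description only.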

How the data were processed

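The authors deposited scanner files of Agilent Feature Extraction 10.1.1.1 (replicate 1) and 10.7.3.1 (replicates 2 and 3), as the headers state. Each holds median spot and background intensity per dye, processed intensity values and a log10 ratio, Cy5 against Cy3, also per the file headers. The authors also deposited a table of log2 ratios made with limma, per the submitters' processing notes, its version not given in the sources used here. Compared with the ratios of the present fit, its log2 values run as Cy5 over Cy3 (correlations 0.985, 0.982 and 0.997 with the sign turned) and have medians of -0.02, -0.02 and -0.01, and how they were centred stays unknown.

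Signals were corrected with normexp (offset 50) and normalized by loess within arrays in limma 3.58.1 (R 4.3.3). Spots flagged as outliers (116, 125 and 207) and control spots had weight 0 and were dropped, and spots of a probe were averaged. Probes well above background in at least 1 channel on all 3 arrays were kept (24019 of 41174), and the brightest probe stood for each gene (18488 tested). Mean ratios were tested against 0 with lmFit and eBayes, adjusted by Benjamini-Hochberg over all genes with a threshold of 0.05. The number of arrays limits the precision. The test was run on simulated data first. Probes were named through RefSeq transcripts of GRCm38.p6 (23374 matched). The array's own build is not given in the sources used here, so gene coordinates are not printed and those of start regions are RefSeq's.

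The members and the lists were chosen with earlier results of these data known. Named are all 6 genes at every probe, Stag1, called genes of each list and up to 4 others with the smallest p, the neighbours with the smallest p, and the 5 genes nearest to Fcer1g and to Fcgrt. Genes outside this rule are Syk and B2m, added for their role, and a few given as part of a range or as neighbours by position. Some items that fall under the rule are not reported here.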

Additional observations from a re-analysis of the deposited data

How the results depend on the processing

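Direction was kept by all 6 Fc receptor genes under every alternative run (18 each), while the calls moved. Several alternatives change only the filter or the test, leave the ratio as it was and could not reverse it. Leaving out an array could not reverse a gene with 1 sign on all arrays. Fcgrt fell to 0.02 with median centring. Of 58 genes called over the whole table and 2 Fc receptor genes and 7 pathway genes among them, 118, 4 and 11 were called without background subtraction, 265, 4 and 24 with an offset of 0, and 325, 5 and 26 with the processed signals. Scale normalization between arrays gave 160, 4 and 12, array weights 185, 4 and 19, and a threshold of 0.1 gave 132, 4 and 15. A filter for both channels above background gave 92 and 4, with 8 pathway genes. Median centring gave 34, 0 and 4; it moved the median of all genes to -0.30, against which Fcer1g lay at -2.83, Fcgr3 at -2.94 and Fcgrt at 0.32. Both channels as separate samples gave 102 and 0, with 10 pathway genes. The deposited values gave 55, 1 and 6, the 1 being Fcgr3, with Fcer1g at a limma adjusted p of 0.0561. In limma without a filter on dim probes 0, 0 and 0 passed (1990 genes at an unadjusted p under 0.05), and likewise 0, 0 and 0 with a variance trend and robust fit (276). With the slide as a fixed term, whose spread comes from the 2 arrays of slide 2 alone, the counts were 1772, 5 and 37.

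Leaving out 1 array gave 0 to 284 genes, 0 to 4 Fc receptor genes and 0 to 25 pathway genes. Without replicate 1, Fcgr3, Fcer1g, Fcgr1 and Fcgr2b were called; without replicate 2 and without replicate 3, 0 genes passed in limma (1294 and 736 at an unadjusted p under 0.05). Fcer1g was then at -2.85 and -2.92 (limma adjusted p = 0.243 and 0.549) and Fcgr3 at -3.00 and -2.90 (limma adjusted p = 0.215 and 0.491). Over all alternatives Fcer1g ranged from -3.13 to -2.46, Fcgr3 from -3.23 to -2.71, Fcgr1 from -3.44 to -2.60, Fcgr2b from -3.62 to -2.69, Fcgr4 from -1.79 to -0.90, Fcgrt from 0.02 to 0.53 and Stag1 from 2.45 to 4.21. The cause of these moves was not tested. Spot mean signals were not run, since the files hold medians. The ratio within an array is already the paired analysis, and the fit of both channels as separate samples is the unpaired one. Fcgr4 is limited by a Cy3 signal of 2.40 to 4.12 times background.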
